A study of Mus musculus with 8 samples.

Results

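Blood progenitors carrying a HoxB4 retrovirus were compared with progenitors carrying the control virus MigR1. The comparison used 4 of the 8 samples of the series, chosen by their titles: 2 expression arrays of the HoxB4 group and 2 of the MigR1 group. A further group, iHoxB4 (2 arrays), entered the fit only to help estimate the spread between arrays, and the remaining 2 samples are promoter arrays that were not used here. Every probe set of the expression arrays was included, 35557 in all, before a filter on level. A probe set is a group of short probes, meant in most cases to read 1 transcript or region. Any control probe sets among them were not identified here and were not removed as such. No gene names were attached to the probe sets here, so changes are given for probe sets by number. The level of HoxB4's own transcript, and those of Kit and Itga2b (the gene of CD41), were therefore not checked in either group.

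HoxB4 is a homeobox transcription factor. When it is overexpressed it promotes the expansion of blood stem and progenitor cells, and in cells derived from mouse embryonic stem (ES) cells it favours the growth of progenitors in culture. It binds DNA together with cofactors of the Pbx and Meis families. MigR1 is a retroviral vector that expresses green fluorescent protein from the same transcript as its insert, and it serves here without an insert.

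Both groups began as mouse ES cells that were grown as embryoid bodies, aggregates in which ES cells differentiate, until day 6. Cells with the cytokine receptor c-Kit and with CD41, an integrin that appears early in blood development, were then cultured on OP9, a mouse stromal cell line that supports blood cells. MigR1 cells received the control retrovirus and HoxB4 cells the HoxB4 retrovirus, and both grew without doxycycline. The titles and source names put the HoxB4 arrays in their group, but their descriptions call the HoxB4 virus a control retrovirus as well, and this conflict was not resolved because HoxB4's own level was not checked. The iHoxB4 cells grew on OP9 with doxycycline, and their labels name no virus. The sample labels place the RNA at day 8 of coculture, whereas the series text places the collection of HoxB4 cells at day 12 and adds that they were sorted for c-Kit. That text gives the virus a 3xFLAG tag, which the labels of the expression arrays do not mention. The labels do not name the ES line of the expression samples, nor do they say whether a group's arrays hold RNA of separate cultures. The p-values therefore measure only the spread between arrays, which may be technical. In bulk RNA, fewer cells of a type and less RNA per cell cannot be told apart.

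Each value is the authors' score for a probe set, on a scale that the sources used here do not state. The score ran from 16.9 to 86 on the MigR1 arrays, and its quartiles were 37.3, 45.43 and 57.3 on each of the 6 arrays. The values sorted on any 1 array differed from those sorted on MigR1 array 1 by at most 0.115, so a probe set can be placed on an array by its percentile, from the lowest score to the highest. Percentiles do not depend on the unknown scale and are given below beside the score. No detection call was used here, so how far scores below the 25th percentile measure a transcript is not known. No fold change is given.

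The MigR1 arrays were less alike than the HoxB4 arrays. Between the 2 MigR1 arrays the median absolute difference over 27329 probe sets was 0.863 score units, and 827 probe sets (3.03%) differed by at least 5 units. Between the 2 HoxB4 arrays the median was 0.46 units and 134 probe sets (0.49%) differed by that much. The gap was larger in MigR1 than in HoxB4 for 68.7% of the probe sets. Across groups, MigR1 array 1 differed by at least 5 units at 1217 and 1263 probe sets from the HoxB4 arrays 1 and 2, and MigR1 array 2 at 1723 and 1463. All 4 of these counts exceeded the count between the MigR1 arrays. The Pearson correlation across these probe sets, which are not independent replicates, was 0.9954 within HoxB4, 0.9849 within MigR1 and from 0.9714 to 0.9760 between the groups. The replicate spread was thus larger on the control side of the comparison.

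The main question was how transcript levels change with HoxB4 relative to an empty vector. In HoxB4, 1624 probe sets were higher (5.94% of those tested) and 1858 were lower (6.8%) than in MigR1, together 3482 or 12.7% of 27329 (limma, adjusted p under 0.05). Before adjustment, 4270 were higher and 3383 lower at p under 0.05. The groups did not overlap at any of the 3482. A call needs a difference that is large against the replicate spread, so this adds no support to the calls. Over all probe sets tested the groups did not overlap at 52.3%, with 8335 (30.5%) higher in HoxB4 and 5949 (21.8%) lower. With 2 arrays against 2, an exact permutation test of a single probe set cannot give a two-sided p below 0.333. Each call therefore rests on the spread pooled over probe sets and groups. The fit takes the same spread in every group, but the median replicate SD was 0.611 in MigR1, 0.325 in HoxB4 and 0.305 in iHoxB4. Pooling in the tighter iHoxB4 arrays can make the SE and p-values of this comparison too small. The counts moved with the arrays in the pooled spread. Leaving out iHoxB4 array 1, iHoxB4 array 2 or both gave 383 higher and 1014 lower, leaving out HoxB4 array 1 gave 160 and 664, and leaving out HoxB4 array 2 gave 189 and 703. With the replicate number as a block 515 were higher and 1130 lower. An intensity trend in the prior raised the counts and turned their balance, with 2500 higher and 2203 lower.

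**Figure D1:**
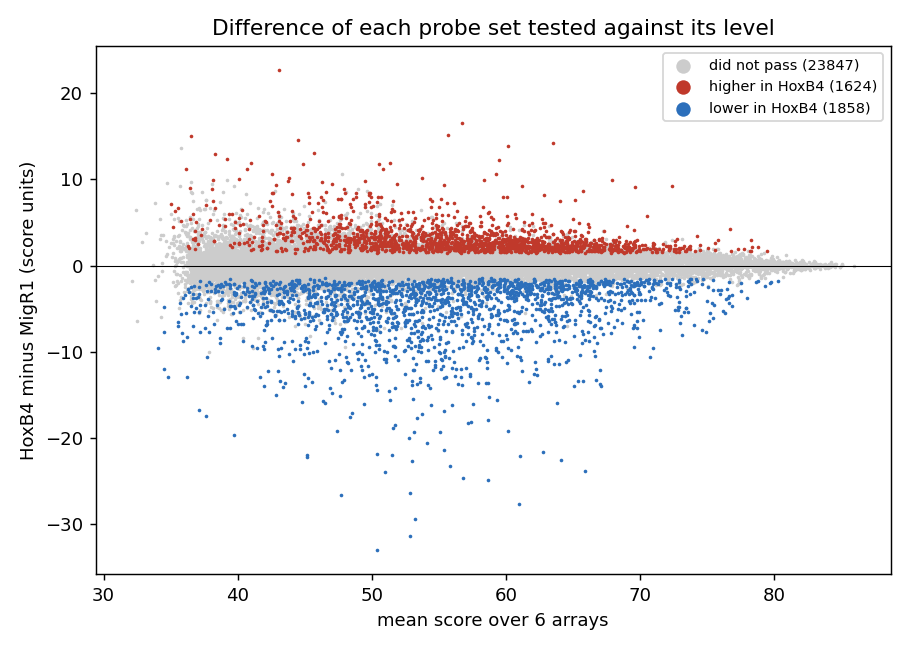
Each point is 1 of the 27329 probe sets tested, with its mean score over the 6 arrays on the horizontal axis and HoxB4 minus MigR1 in score units on the vertical axis; colours mark the 1624 higher and 1858 lower probe sets (limma, adjusted p under 0.05). The lower ones reach -33.1 and the higher ones 22.7, and the widest differences lie at middle levels.

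The largest increase was at probe set 10461735. Its score was 34.4 and 34 on the MigR1 arrays and 57.3 and 56.5 on the HoxB4 arrays. It moved from percentiles 18.6 and 17.7, to percentiles 74.9 and 73.5, that is, from below the 25th percentile to well above the median. The difference was 22.7 ± 0.454 (SE) score units (limma adjusted p = 0.000239), against a gap of 0.483 between the MigR1 arrays and 0.77 between the HoxB4 arrays. On the iHoxB4 arrays it read 37.9 and 38.4, closer to MigR1 than to HoxB4.

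Probe set 10604576 had the next largest increase. It read 50.3 and 48.4 on the MigR1 arrays, at percentiles 61.6 and 57.6, and 66 and 65.7 on the HoxB4 arrays, at percentiles 89.5 and 89. Unlike probe set 10461735, it already lay above the median in the control cells. The difference was 16.5 ± 0.684 (SE) units (limma adjusted p = 0.000484), against a gap of 1.84 between the MigR1 arrays and 0.371 between the HoxB4 arrays. Its iHoxB4 scores, 55.3 and 54.8, lay between those of the other groups.

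The largest decrease was at probe set 10419151, which read 63.8 and 65.3 on the MigR1 arrays and 30 and 33 on the HoxB4 arrays. Its percentiles went from 86.2 and 88.5 to 10.9 and 15.8. The probe set was thus above the 75th percentile on both control arrays and below the 25th on both HoxB4 arrays. The difference was -33.1 ± 1.66 (SE) units (limma adjusted p = 0.000788), and the HoxB4 arrays differed from each other by 2.97 units. Its size, and that of the increase at probe set 10461735, is taken against scores below the 25th percentile, in HoxB4 and in MigR1 respectively. On the iHoxB4 arrays it read 57.1 and 53.2, nearer to MigR1.

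Probe set 10589535 fell from 72.4 and 70 on the MigR1 arrays to 39.3 and 40.2 on the HoxB4 arrays. In MigR1 it was among the brightest probe sets, at percentiles 95.6 and 93.7, and in HoxB4 it lay below the median, at 30.8 and 33.5. The difference was -31.4 ± 1.03 (SE) units (limma adjusted p = 0.000285). Its iHoxB4 scores of 46.7 and 48.5 were nearer to those of HoxB4, whereas those of the other 3 named probe sets were nearer to MigR1. Comparisons with iHoxB4 share the MigR1 arrays, so these values are given side by side with no test. All 4 probe sets kept their direction and passed the threshold in each alternative fit, with adjusted p up to 0.0155 (limma). Of the 15 alternatives, 12 gave a fit that differed from the main one and from each other, and 10 of these held both MigR1 arrays. The 4 probe sets were picked for the largest differences on these same arrays, so passing again is no independent check.

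**Figure D2:**
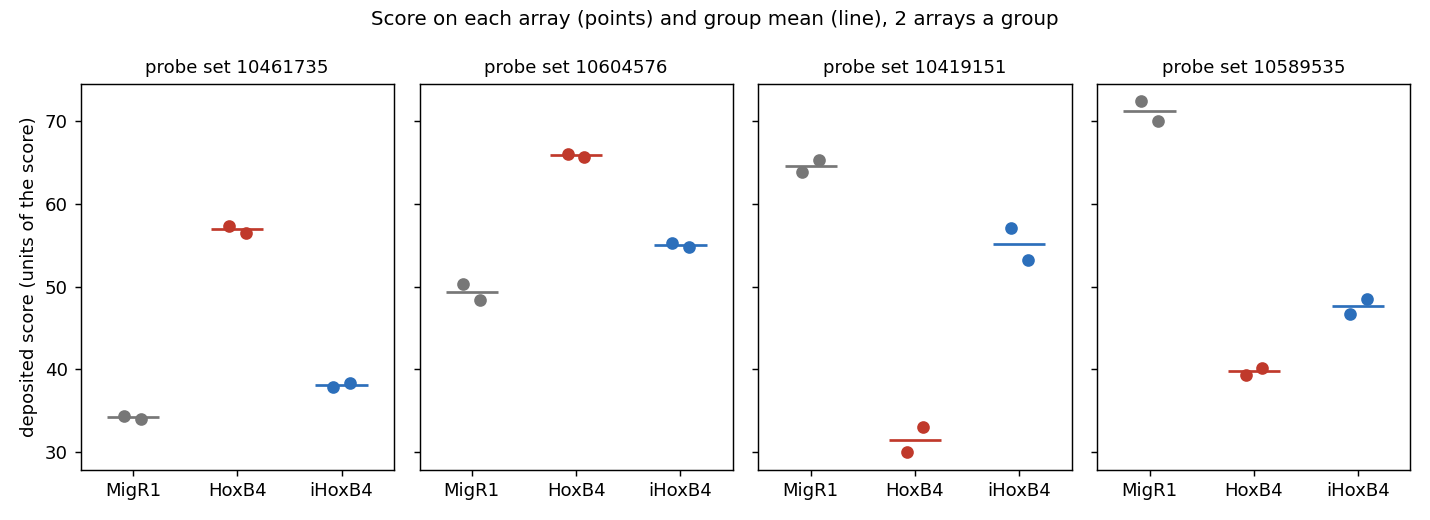
The panels show the deposited score of the 4 named probe sets on each array (points, 2 arrays a group) with the group mean (line) for MigR1, HoxB4 and iHoxB4. In each panel the HoxB4 and MigR1 arrays do not overlap, and the iHoxB4 arrays lie between them.

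Decreases reached larger sizes than increases in score units. Among the probe sets that passed, the median difference was 2.58 units (quartiles 2.05 and 3.54) for the higher ones and -3.94 units (quartiles -6.46 and -2.54) for the lower ones. A difference of at least 5 units was seen at 173 higher and 712 lower called probe sets, one of at least 10 at 23 and 189, and one of at least 20 at 1 and 22. The 2 MigR1 arrays themselves differed by at least 10 units at 55 probe sets and by at least 15 at 4. No probe set differed by 20 units within MigR1 or within HoxB4. Whether called or not, 280 increases and 773 decreases reached 5 units, where the MigR1 arrays had 827 gaps, and 25 and 190 reached 10. The gaps are between single arrays in either direction and the differences between means of 2 arrays in 1 direction, so these counts are not of the same form.

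**Figure D3:**
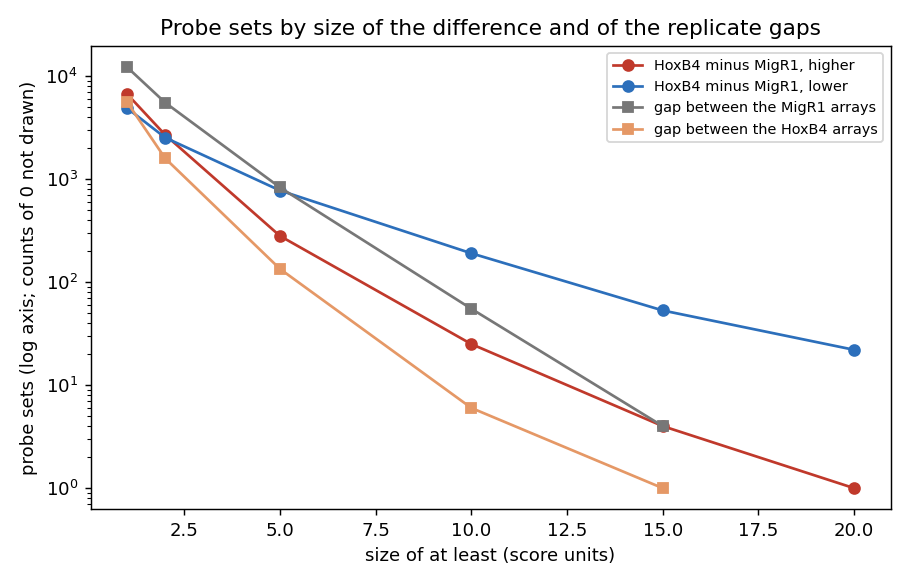
The number of probe sets (log axis) is plotted against the smallest size counted, from 1 to 20 score units, for increases and decreases in HoxB4 and for the gap between the 2 arrays of MigR1 and of HoxB4. The decreases lie below the MigR1 gaps at 5 units (773 and 827) and above them at 10 (190 and 55), where the increases number 25; gaps are between single arrays and differences between means of 2 arrays.

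The sizes were also read as percentiles, for the probe sets called on the score. The higher probe sets had a median percentile of 71.2 in MigR1 and 76.5 in HoxB4, and the lower ones of 76.9 in MigR1 and 66.1 in HoxB4. Over all probe sets tested it was 61.5 in either group. In MigR1 the lower quartile was percentile 58.7 for the higher ones and 63.9 for the lower ones, so most of both sets started above the array median. Fewer could therefore cross the median upward than downward, and the counts below do not allow for this. Of the higher ones, 103 lay below the array median on both MigR1 arrays and above it on both HoxB4 arrays. Of the lower ones, 228 crossed the median the other way. With calls made on normal scores of the ranks instead, a choice added after seeing the data, 94 of 1346 and 227 of 1743 crossed. From above the 75th percentile on both MigR1 arrays, 23 lower probe sets dropped below the median of both HoxB4 arrays, and 0 higher ones went from below the median to above the 75th percentile. Few crossed from one end towards the other: 4 rose from below the 25th percentile to above the median, and 9 fell from above the median to below the 25th percentile. Above the 75th percentile on all 4 arrays stayed 635 higher and 626 lower probe sets. These counts were made among called probe sets only, so no share over all tested stands beside them. Over all probe sets tested, the upper quartile lay at percentile 80.7 in MigR1 and 80.8 in HoxB4.

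Calls were most frequent at scores from 50 to 70. Of 6629 probe sets with a mean score from 50 to 60, 682 were higher (10.3%) and 684 lower (10.3%), and of 5031 from 60 to 70, 505 were higher (10%) and 505 lower (10%). Below a score of 40, 1.18% were higher and 2.57% lower, and from 40 to 50, 3.23% and 4.68%. From 70 on, 3.33% were higher and 5.06% lower. The replicate SD moved with the level as well: its median in MigR1 was 0.921 units below 40, 0.953 from 40 to 50, 0.583 from 50 to 60, 0.34 from 60 to 70 and 0.232 from 70 on. At every level it was smaller in HoxB4, from 0.462 below 40 to 0.194 from 70 on. Of the 189 called decreases of at least 10 units, 96 had a mean score from 50 to 60, 52 from 40 to 50 and 33 from 60 to 70. The part of the spread in the shares called was not tested.

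**Figure D4:**
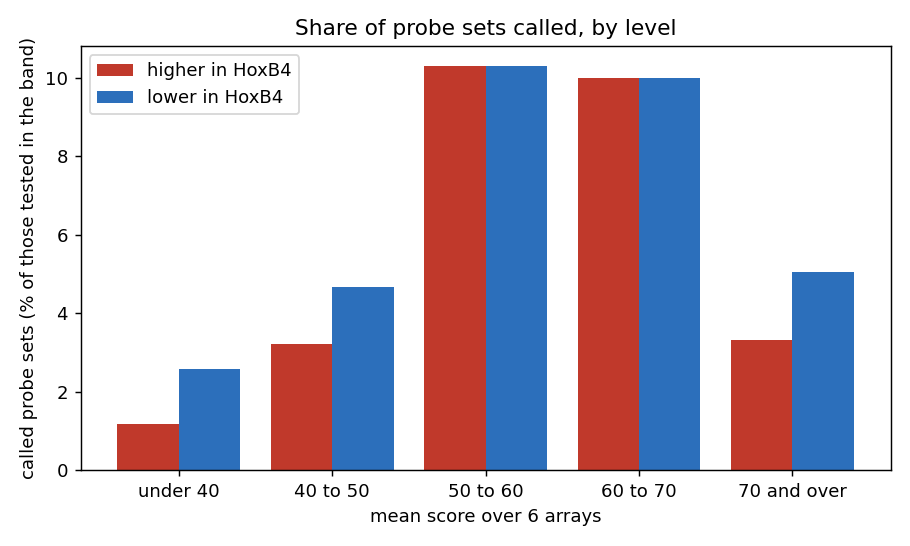
Bars give the share of probe sets higher or lower in HoxB4 (limma, adjusted p under 0.05), in percent of those tested, for 5 bands of the mean score over the 6 arrays. Both shares are highest from 50 to 70, at 10% to 10.3%, and lowest under 40, at 1.18% and 2.57%.

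A smaller set passed in every fit. Of the 1624 higher probe sets 127, and of the 1858 lower ones 610, were called in the same direction with each HoxB4 or iHoxB4 array left out in turn. These 127 and 610 also passed in all the other fits that tested them, and the 4 named probe sets are among them. The 127 higher ones differed by 3.84 to 22.7 units, with a median of 6.01, and the 610 lower ones by -33.1 to -3.61 units, with a median of -7.55. Their median percentile went from 61 in MigR1 to 73.1 in HoxB4 for the higher ones and from 80.8 to 62.7 for the lower ones. These sets were chosen on the values given here, so their sizes are a description. The fits share most of their arrays, and leaving out either iHoxB4 array gives the same fit, so they are not separate checks.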

How the data were processed

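The authors deposited 1 score per probe set and array. Per the submitters' processing notes, the tools were Affymetrix Expression Console and RMA, a method that background-corrects, quantile-normalizes and summarizes probes; versions are not given. Log base and multiplier are not given in the sources used here. The scores span too little for linear intensities, so they were tested as deposited, with log2 of the score as an alternative. The labels' titles gave groups and replicate numbers. Of 35557 probe sets, the 27329 that exceeded an array's 25th percentile on 2 or more arrays were tested. The 6 arrays entered 1 linear model of the 3 groups (limma 3.58.1, lmFit and eBayes, R 4.3.3; 3 residual and 1.99 prior degrees of freedom), two-sided, with Benjamini-Hochberg adjustment and a threshold of 0.05. The fit was also run on simulated scores with the same spread in every group. That run cannot show how the unequal spreads of the groups affect the calls. The number of arrays limits the precision. Percentiles are ranks among all 35557 probe sets of an array. The 2 largest increases and 2 largest decreases in score that passed without overlap are named, the rule where no gene table is at hand. The comparison and this rule were chosen with earlier results of these data known. Gene lists and promoter signal need gene names and were not analysed here.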

Additional observations from a re-analysis of the deposited data

How the results depend on the processing

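With 4 arrays only, the fit without iHoxB4, 383 probe sets were higher and 1014 lower. Array weights gave 826 higher and 1339 lower, and an intensity trend in the prior 2500 and 2203, a share of higher calls of 53.2% against 46.6%. Over the fits that left out 1 array, higher counts ran from 160 to 2428 and lower counts from 664 to 2091. The highest came without a MigR1 array, where no MigR1 spread enters the fit, so they are no check of the calls. Likewise, no HoxB4 spread enters the fits without a HoxB4 array. Leaving out either iHoxB4 array repeats the fit of 4 arrays only. With the replicate block 515 were higher and 1130 lower, 503 and 1118 of them called in the main fit. The labels tie the replicate numbers to no shared culture or batch. Deviations of same-numbered arrays correlated at 0.25 between HoxB4 and MigR1, at -0.46 between iHoxB4 and MigR1 and at -0.18 between iHoxB4 and HoxB4. With log2 of the score, without the filter, without the first 6614 consecutively numbered probe sets, with normal scores of the ranks and with each array centred on the median tested, both counts stayed within 1.5 times. The last 2 of these were chosen after seeing the data. Centring returned the main counts, 1624 and 1858. Sorted arrays differed by at most 0.115, so centring could change little and is no check of the calls. Log2 shared 1282 higher and 1681 lower calls with the main fit, and normal scores 1305 and 1715. Fits of probe sets with 1 gene symbol, and promoter alternatives, were not run, for lack of gene names.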

Other observations

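Called probe sets had called neighbours in the order of the deposited table, which follows the probe set numbers. Of the 1858 lower probe sets, 420 (22.6%) had a lower one in the row before or after, against 10.8% of all probe sets tested. Of the 1624 higher ones, 276 (17%) had a higher neighbour, against 9.62% of all tested. Neighbours called the opposite way were near the shares over all tested. Of the higher ones, 153 (9.42%) had a lower neighbour, against 10.8% of all tested. Of the lower ones, 155 (8.34%) had a higher neighbour, against 9.62%. What adjacent probe sets share was not determined here, and no test was made.

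The first run of consecutive numbers held 5023 of the probe sets tested, and of these 149 (2.97%) were higher and 154 (3.07%) lower in HoxB4, against 5.94% and 6.8% of all probe sets tested. Of the 127 higher and 610 lower probe sets that passed in every fit that tested them, it held 5 and 18. Without this run, 22306 probe sets were tested, and 2043 were higher and 2077 lower. What the run holds, controls or transcripts, was not determined here.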
